A study of Mus musculus with 6 samples.

Results

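The SLAM family of surface receptors, their adaptor SAP and the kinase Fyn were followed in invariant natural killer T (iNKT) cells of mouse liver, in controls and in a genotype with floxed alleles of the transcription factor Ets1. The set was defined by name: the 7 receptor genes Slamf1, Slamf6, Slamf7, Ly9, Cd84, Cd48 and Cd244a, the SAP gene Sh2d1a, and Fyn. All 9 were among the 12942 genes of the deposited table, and all 9 were among the 11226 that reached a normalised read count of 10 in at least 3 of the 6 libraries and were tested. The liver cells carried YFP and bound the CD1d tetramer, and the cell type label of all 6 libraries is iNKT1, although the titles of control replicate 4 and cKOHet replicate 1 say only iNKT. The control group had the genotype Tbx21Cre Rosa26-YFP+, that is, a Cre named for Tbx21 and a YFP reporter in Rosa26. The other group, named cKOHet, had both of these elements and also the alleles Ets1F/F and Tbx21F/+, so the effects of the floxed Ets1 alleles and of the floxed Tbx21 allele cannot be told apart. There were 3 libraries per group, numbered 1, 2 and 4. In both groups the column code of replicate 1 joins a pair of names, without explanation in the labels. The labels give neither age nor strain, and the thymic cells and the floxed-Ets1-only mice of the design text were not analysed here.

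SLAM receptors are immunoglobulin-type surface proteins of blood cells. Most of them bind a copy of themselves on a neighbouring cell, and most carry tyrosine motifs in their tails that the small adaptor SAP docks onto. SAP then brings in Fyn, a kinase of the Src family. iNKT cells are selected in the thymus by other thymocytes, and this step needs SLAM receptor contacts, SAP and Fyn, so the pathway is best known in these cells for their development. The comparison asks how its transcripts stand in mature liver iNKT cells of that genotype.

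Ets1 was the check on the labels. It lay between 6255 and 7787 normalised read counts in controls and between 441 and 596 in cKOHet libraries, with no overlap (log2 fold change -3.84, SE 0.14, limma adjusted p = 1.06e-10). Tbx21, which encodes T-bet, averaged 2568 ± 174 (SD, n = 3) and 2206 ± 98.5 (SD, n = 3) and did not pass the test (adjusted p = 0.196). Column sums ranged from 4996523 to 5219483. Replicate 4 of each group had almost no Xist (1.17 and 0.08) and high summed counts of 4 Y-linked genes (1501 and 1550), while the other 4 libraries had Xist between 4337 and 5657, so both groups held libraries of both kinds in equal number. All 9 T and iNKT cell markers were listed (Trav11, the segment of the iNKT receptor, at only 3.24 to 14.8), with summed levels of 45100 to 47900 in controls and 39200 to 44200 in cKOHet libraries. Of these 9, Il2rb alone was called lower (20260 to 12380 on average, log2 -0.72), Cd247 and Zbtb16 were called higher, and 6 were not called. Il2rb was the largest part of the sum in every library, and without it the cKOHet sums were not lower than those of controls. None of the B cell markers Ms4a1, Cd79a, Cd79b and Pax5 and none of 4 neutrophil markers (S100a8, S100a9, Ly6g, Csf3r) was in the table. In such bulk libraries, fewer cells of a type and less RNA per cell cannot be told apart.

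Of the 9 genes, 3 rose, 3 fell and 3 did not pass the test. Cd244a, Slamf7 and Sh2d1a were higher in cKOHet libraries, and Ly9, Cd84 and Fyn were lower. Slamf1, Slamf6 and Cd48 were not called. A call here means an adjusted p under 0.05 in limma, fitted and adjusted over all 11226 genes. In this comparison 21.4% of all genes tested were called, 11.5% higher and 9.97% lower. The groups did not overlap at 6 of the 9 genes, against 35.8% of all genes tested. The median log2 fold change of the 9 was 0.19, beside 0.01 over all genes, and the median size of the change regardless of sign was 0.71, beside 0.30.

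**Figure D1:**
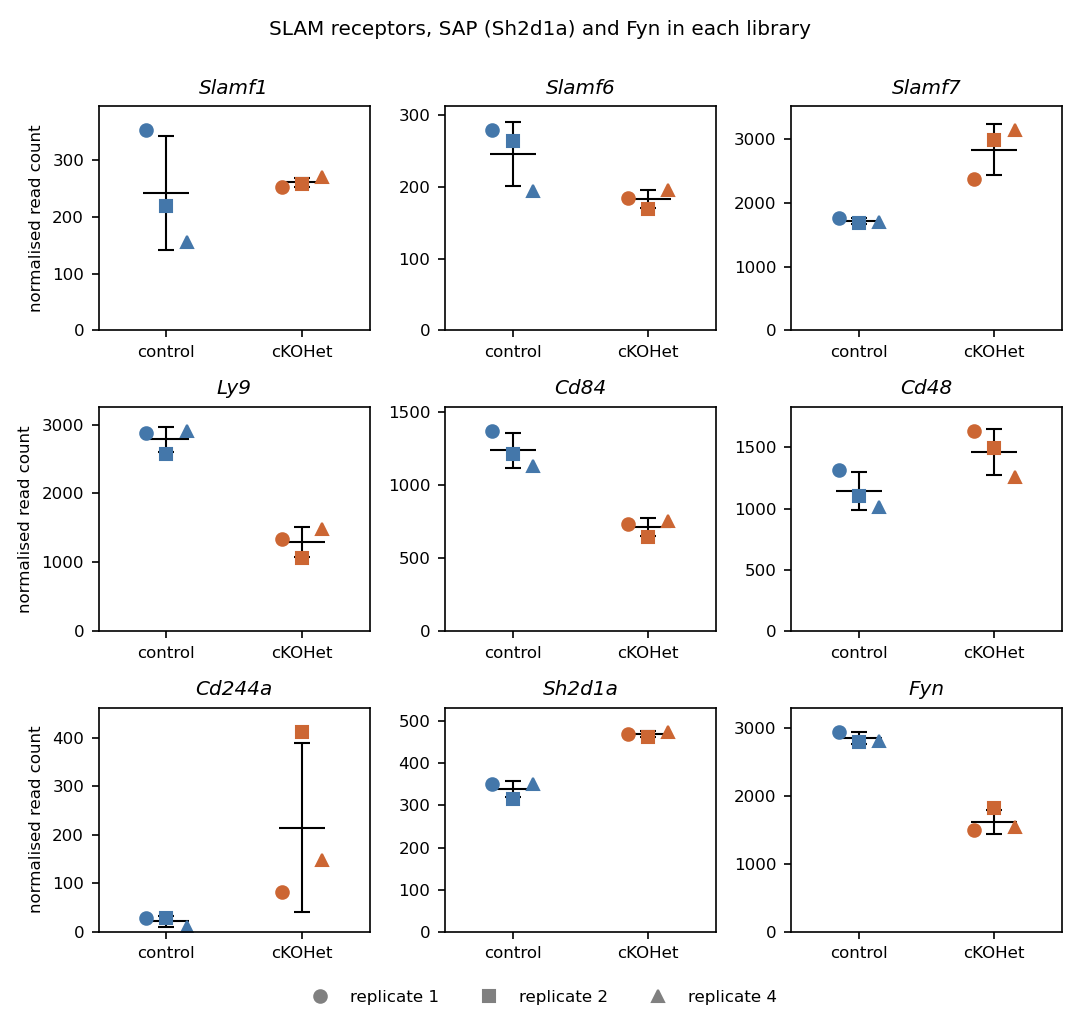
Normalised read count of each of the 9 genes (vertical axes, from 0) in the control and cKOHet libraries, with 1 symbol per library and the mean ± SD of the 3 libraries as black bars. Ly9, Cd84 and Fyn sit lower in every cKOHet library, Slamf7, Cd244a and Sh2d1a sit higher in every one, and Slamf1, Slamf6 and Cd48 overlap.

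Ly9 and Cd84, receptors that each bind their own kind, fell. Ly9 (ENSMUSG00000004707, encoding CD229) had normalised read counts of 2883, 2578 and 2908 in control replicates 1, 2 and 4 and of 1332, 1064 and 1486 in cKOHet replicates 1, 2 and 4. The highest cKOHet library thus stood well below the lowest control. Its mean went from 2790 ± 184 to 1294 ± 214 (SD, n = 3), a log2 fold change of -1.12 (SE 0.13, 95% interval -1.40 to -0.84, limma adjusted p = 1.67e-05). This is a level 46.0% of that in controls, the largest decrease among the 9 genes. Cd84 (ENSMUSG00000038147) was at 1367, 1207 and 1131 in controls, against 733, 641 and 754 in cKOHet libraries. All 3 cKOHet libraries lay below all 3 controls, and both groups were tight, with means of 1235 ± 121 and 709 ± 59.8 (SD, n = 3). The log2 fold change was -0.80 (SE 0.12, 95% interval -1.06 to -0.54, limma adjusted p = 0.00021). Both stayed called in all 17 alternative fits.

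Slamf7 and Cd244a, receptors best known on natural killer cells and cytotoxic lymphocytes, rose. Slamf7 (ENSMUSG00000038179, encoding CRACC) was at 1762, 1675 and 1703 in controls, against 2378, 2986 and 3131 in cKOHet libraries. The controls were nearly equal, and every cKOHet library exceeded them, with replicate 1 the least raised. Its log2 fold change was 0.71 (SE 0.12, 95% interval 0.45 to 0.98, limma adjusted p = 0.000596). Antisense transcript Gm37787 lies over 9.24% of the exonic bases of Slamf7, and without a stated strand setting reads there cannot be assigned. It was low, at 6.44 to 22.2 in controls and 24.2 to 39.1 in cKOHet libraries, and its part in the Slamf7 counts was not tested.

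Cd244a (ENSMUSG00000004709), which encodes the CD48 receptor 2B4, showed the largest change of the 9. It was low in controls, at 27.5, 28.6 and 8.58, and stood at 82.6, 413 and 149 in cKOHet libraries. The cKOHet libraries were all higher but uneven, with replicate 2 far above the others. The log2 fold change was 3.11 (SE 0.52, 95% interval 2.0 to 4.22, limma adjusted p = 0.000451), and without cKOHet replicate 2 it was 2.48 and still called. Its gene body spans that of Ly9 on the opposite strand, but no exonic bases are shared. The 3 tested genes whose values over the 6 libraries were most like those of Cd244a, by Pearson r of log2 values, were Tmem135 (r = 0.997), Nfil3 (r = 0.989) and B4galnt4 (r = 0.988). All 3 of these were likewise highest in cKOHet replicate 2, B4galnt4 at 160 against 60.4 and 65.5 in the other cKOHet libraries and 5.41 to 14.6 in controls. Nfil3 encodes a transcription factor of natural killer cell development, and Tmem135 and B4galnt4 encode a membrane protein and a glycosyltransferase. The 6 libraries fall in 2 groups that differ at all 4 genes, so each r is a description of these libraries only.

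Some genes listed as markers of cells other than iNKT cells also differed between the groups, and others did not. Cd8a had the same order among cKOHet libraries as Cd244a (237, 1657 and 440, against 10.7 to 20.1 in controls), while its partner Cd8b1 was at 3.56 to 31.5 and 13.6 to 35.4. The 5 natural killer cell markers summed to 115 to 130 in controls and 167 to 212 in cKOHet libraries, with Ncr1, the defining receptor, below 10 in all 6. In controls most of that sum was Itga2, which was not called (means 91.29 in controls and 90.52 in cKOHet libraries). As Itga2 was at 67.7 to 104 in cKOHet libraries, the higher sums there came from the other markers. Klra8, at 2.21 to 4.33 and 28.8 to 49.3, and Eomes, at 0.07 to 12.6 and 12.5 to 26.2, were called higher (log2 3.31 and 2.57, limma adjusted p = 0.000181 and 0.039). The 6 macrophage and Kupffer cell markers summed to 32.1 to 82.9 and 123 to 136. Csf1r and Clec4f were called higher, and Lyz2, Cd68 and C1qa were not called. Of 5 dendritic cell markers 3 were listed, summing to 111 to 155 and 292 to 338, most of it Xcr1 and Itgax, with Flt3 and Siglech not listed. Of 3 mast cell and basophil markers only Cpa3 was listed, at 1.69 to 6.45 and 79.8 to 123. Of 4 liver endothelial markers 2 were listed, summing to 172 to 224 and 48.9 to 52.4. Nearly all of this was Pecam1, which was called lower (log2 -2.16). Stab2 was near the floor, at 0.04 to 3.67 in controls and 1.01 to 12.4 in cKOHet libraries, and did not pass the filter. The part of these cells in the values of the SLAM receptors was not tested.

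**Figure D2:**
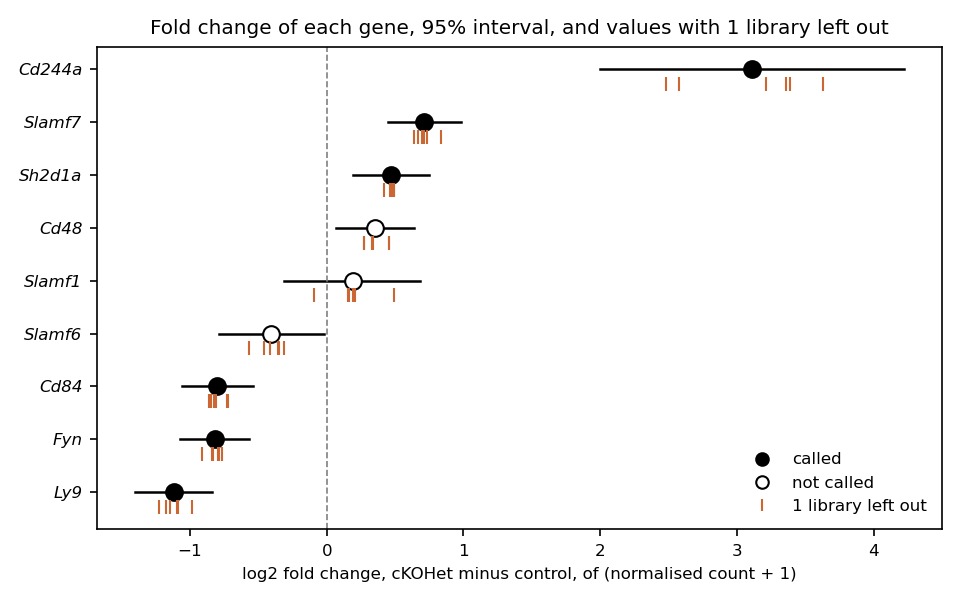
Log2 fold change (cKOHet minus control, on normalised count + 1) of each gene, with its 95% interval from limma as a line, filled circles for called genes and orange ticks for the values with 1 library left out. Cd244a at 3.11 has the widest interval, Slamf1 is the gene whose ticks fall on both sides of 0, and Ly9 at -1.12 is lowest.

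Slamf1 and Slamf6, the pair whose joint loss is known to block iNKT development, were not called. Slamf1 (ENSMUSG00000015316, encoding CD150) spread widely in controls, at 353, 219 and 156, and was nearly constant in cKOHet libraries, at 254, 259 and 271. All 3 cKOHet values fell inside the control range. The log2 fold change of 0.19 (95% interval -0.31 to 0.68, limma adjusted p = 0.64) changed its sign to -0.09 without control replicate 4. Slamf6 (ENSMUSG00000015314, encoding Ly108) was at 279, 265 and 195 in controls, against 184, 170 and 196 in cKOHet libraries. Control replicate 4 lay at the level of the cKOHet libraries, and the other controls above it. The log2 fold change was -0.41 (95% interval -0.79 to -0.02, limma adjusted p = 0.13), and without control replicate 4 it was -0.57 and was called (adjusted p = 0.0479).

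Neither Cd48 nor Cd2 was called. Cd48 (ENSMUSG00000015355) encodes a receptor anchored by a lipid, with no signalling tail, which binds 2B4 and, in mice, CD2. It was at 1313, 1101 and 1017 in controls, against 1634, 1492 and 1260 in cKOHet libraries. Cd48 in cKOHet replicate 4 was below control replicate 1, so the groups overlapped. Its log2 fold change of 0.35 (95% interval 0.07 to 0.64, limma adjusted p = 0.0746) was just outside the threshold, and it was called without control replicate 1 (0.46, adjusted p = 0.0472) or cKOHet replicate 4 (0.46, adjusted p = 0.0311) and with a term for libraries with low Xist (adjusted p = 0.0392). Cd2 was at 1295 to 1469 in controls and 910 to 1207 in cKOHet libraries, with no overlap, and was not called either (log2 -0.33, limma adjusted p = 0.0866), except after quantile normalisation (adjusted p = 0.0435).

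SAP and Fyn, which act in sequence, moved in opposite directions. Sh2d1a (ENSMUSG00000005696, chromosome X, 42502453 to 42529330 on mm10) was at 351, 317 and 350 in controls, against 470, 463 and 476 in cKOHet libraries. The groups were far apart relative to their spread (339.1 ± 19.5 and 469.5 ± 6.56, SD, n = 3). Its log2 fold change was a modest 0.47 (SE 0.13, 95% interval 0.19 to 0.75, limma adjusted p = 0.0168). The call ended without control replicate 2 (adjusted p = 0.0691), without a mean-variance trend (0.0529) and in the 4 libraries with high Xist (0.0518), with little movement of the value (0.42 to 0.48). A stretch of Sh2d1a with 26.6% of its exonic bases also lies in the antisense gene Tenm1, which was not in the table. Fyn (ENSMUSG00000019843, chromosome 10, 39368855 to 39565381) was at 2948, 2796 and 2812 in controls, against 1495, 1822 and 1539 in cKOHet libraries. Every cKOHet library was far below every control, and the mean went from 2852 ± 83.3 to 1619 ± 178 (SD, n = 3). The log2 fold change was -0.82 (SE 0.12, 95% interval -1.07 to -0.57, limma adjusted p = 9.48e-05) and stayed called in all 17 alternative fits. Within each library, the ratio of Fyn to Sh2d1a counts was 8.04 to 8.84 in controls and 3.18 to 3.94 in cKOHet libraries. The ratio of Fyn to Lck, the other main Src family kinase of T cells, was 0.53 to 0.59 in controls and 0.31 to 0.34 in cKOHet libraries.

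The 7 receptor genes form a single cluster on chromosome 1, from 171559193 to 171953170 on mm10, a span of 394 kb. In the order Cd244a, Ly9, Slamf7, Cd48, Slamf1, Cd84 and Slamf6, called changes up and down alternated at one end, with Ly9 lower between Cd244a and Slamf7, both higher. Of the 11 other tested genes in the cluster or within 200 kb of it, limma called 0, beside 21.4% of all genes tested. Among these 11, 1 had an unadjusted p under 0.05. That gene was Gm37787, the antisense transcript in Slamf7 (log2 1.15, unadjusted p = 0.0306, adjusted p = 0.109). The flanking genes Usf1 (log2 -0.22), Arhgap30 (-0.10), Pfdn2 (-0.12), Ncstn (-0.01), Copa (0.10), Pex19 (0.21) and Dcaf8 (-0.21) all lay within 0.22 of 0, and the low-count genes Alyref2, Gm10521 and the pseudogene Tma7-ps at -0.13, -0.22 and -0.19.

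**Figure D3:**
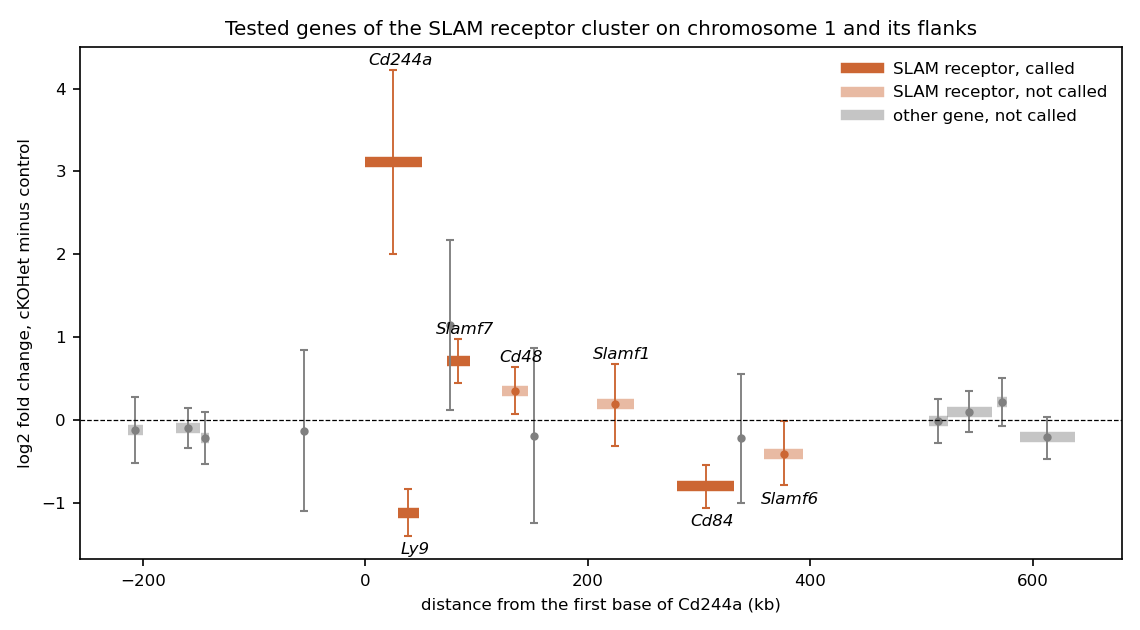
Log2 fold change (vertical axis) of the 18 tested genes in and around the SLAM receptor cluster, against distance in kb from the first base of Cd244a. Horizontal bars span each gene, vertical lines are 95% intervals, and the 4 called genes, all SLAM receptors, are in full orange.

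Ets1 belongs to the ETS factors, whose binding sites centre on the letters GGAA, so the sequence upstream of the start site is shown for both kinds of called gene, Cd84 and Fyn, which fell, and Slamf7 and Cd244a, which rose. The sequences are those of RefSeq on GRCm38.p6 (the build mm10), 5′ to 3′ on the strand of the gene, and stop before the first exon. Capitals mark GGAA on either strand (TTCC on the strand shown). The positions are chr1:171839447-171839696 (plus strand), chr10:39369549-39369763 (plus strand), chr1:171649008-171649249 (minus strand) and chr1:171558943-171559192 (plus strand). The RefSeq starts used for Fyn and Slamf7 lie inside the GENCODE gene bounds.
Cd84: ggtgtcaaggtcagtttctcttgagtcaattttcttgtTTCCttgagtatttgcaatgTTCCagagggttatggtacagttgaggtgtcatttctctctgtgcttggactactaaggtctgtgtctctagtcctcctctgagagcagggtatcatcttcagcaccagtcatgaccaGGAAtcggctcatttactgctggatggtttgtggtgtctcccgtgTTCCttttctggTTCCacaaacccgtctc
Fyn: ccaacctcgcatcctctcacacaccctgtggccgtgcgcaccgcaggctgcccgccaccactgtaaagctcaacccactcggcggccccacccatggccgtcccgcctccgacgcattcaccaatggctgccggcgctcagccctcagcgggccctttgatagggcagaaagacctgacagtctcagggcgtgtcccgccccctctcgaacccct
Slamf7: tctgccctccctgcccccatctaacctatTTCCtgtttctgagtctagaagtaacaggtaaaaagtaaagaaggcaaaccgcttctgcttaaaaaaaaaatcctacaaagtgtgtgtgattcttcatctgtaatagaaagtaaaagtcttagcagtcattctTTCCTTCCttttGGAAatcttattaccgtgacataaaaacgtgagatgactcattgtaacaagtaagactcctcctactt
Cd244a: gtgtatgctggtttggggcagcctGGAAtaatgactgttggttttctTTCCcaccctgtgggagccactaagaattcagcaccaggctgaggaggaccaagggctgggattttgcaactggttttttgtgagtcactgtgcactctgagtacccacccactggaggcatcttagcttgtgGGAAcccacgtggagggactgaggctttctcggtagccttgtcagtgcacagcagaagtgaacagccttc
Over the whole window of 250 bases before to 50 after the start, available for 7 of the 9 genes (not Ly9 and Sh2d1a), GGAA matched 7 times in Cd84, 6 in Slamf1, 4 each in Slamf7, Cd48 and Cd244a, and 0 times in Fyn and Slamf6. The motif is so short that 96.0% of all 32851 windows of this length hold it. The longer form AGGAAG, on either strand and itself containing GGAA, was in Slamf1, Slamf7, Cd84 and Cd48 and in 35.4% of all windows. CCGGAAG was in Cd48 alone of the 7 and in 8.86% of all windows, and the T-box letters GGTGTGA likewise in Cd48 alone and in 3.98%. These matches are letters in a window and not measured binding, and matches occurred in genes that rose, in a gene that fell and in genes that were not called.

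Per kilobase of exonic sequence, the levels of the 9 genes fell in an order that differed between the groups. In controls the normalised count per kb of annotated exon was 962 ± 128 for Cd48, 844 ± 55.6 for Ly9, 654 ± 19.1 for Fyn, 374 ± 9.72 for Slamf7 and 197 ± 19.2 for Cd84 (SD, n = 3). Sh2d1a, Slamf1, Slamf6 and Cd244a followed at 61.6, 39.4, 22.7 and 4.42. Neighbours in this order did not overlap between libraries, except Cd48 with Ly9 and Slamf1 with Slamf6. In cKOHet libraries Cd48 was first at 1230 ± 159 per kb and Slamf7 second at 619 ± 87.3 (SD, n = 3). Ly9 (391 ± 64.6) and Fyn (371 ± 40.7) overlapped, Cd84 stood at 113 and Sh2d1a at 85.3. Cd244a reached 44.1 per kb and ranged from 16.9 to 84.8, overlapping Sh2d1a, Slamf1 (42.4) and Slamf6 (16.9). The order depends on which exons count as the length. Per kb of the longest coding transcript, Ly9 was first in controls (1120 against 964 for Cd48) and Sh2d1a stood above Cd84 in cKOHet libraries (384 against 207).

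The make-up of the receptor transcripts differed between the groups. The summed level of the 7 receptors per kb of exon was 2330 to 2668 in controls and 2406 to 2488 in cKOHet libraries, within the control range. Per kb of the longest coding transcript it was 3294, 2873 and 2878 in control replicates 1, 2 and 4. In cKOHet replicates 1, 2 and 4 it was 2873, 2859 and 2841. Control replicate 1 thus stood above the rest, and the other controls lay close to the cKOHet libraries. Per kb of annotated exon, Ly9 made up 32.7 to 37.7% of the sum in controls and 13.0 to 18.7% in cKOHet libraries. Slamf7 made up 14.4 to 16.0% and 20.9 to 28.4%, and Cd48 36.7 to 41.4% and 44.1 to 55.2%. Cd84 went from between 7.73 and 8.26% to between 4.13 and 4.99%, and Cd244a from at most 0.25% to between 0.68 and 3.43%. The ratio of Ly9 to Slamf7 counts was 1.54 to 1.71 in controls and 0.36 to 0.56 in cKOHet libraries, so that the more abundant of this pair differed between the groups in every library.

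**Figure D4:**
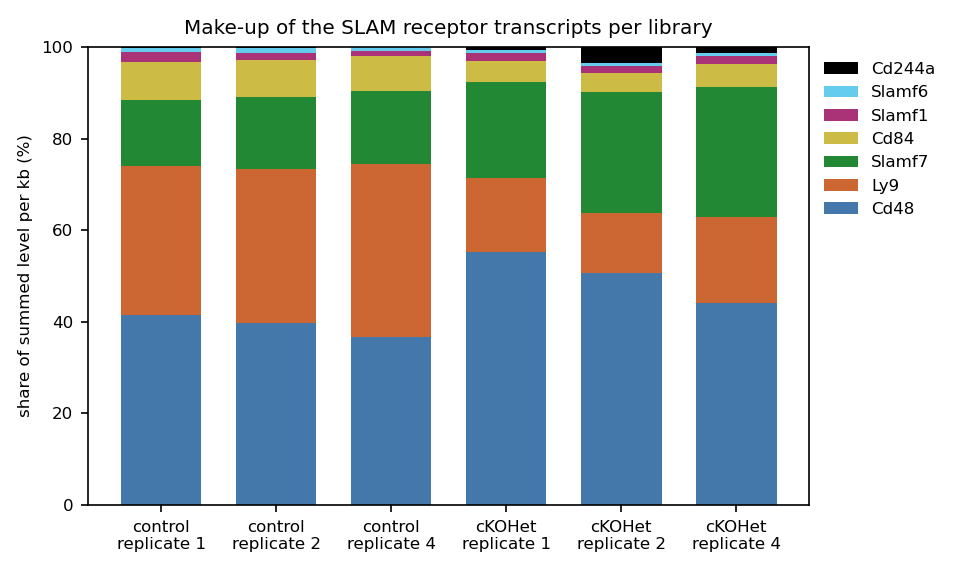
Share of each of the 7 receptors in their summed level per kb of annotated exon (vertical axis, %), 1 bar per library. Ly9 takes 32.7% or more in the 3 control bars and 18.7% or less in the 3 cKOHet bars, and Slamf7 takes 16.0% or less and 20.9% or more.

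Transcripts of the listed signalling partners of SLAM receptors, SAP and Fyn were called lower more often than higher. Of 20 such genes, all tested, 8 fell, 2 rose and 10 did not pass the test in limma. Over all genes tested, 9.97% were called lower and 11.5% higher. The median log2 fold change of the 20 was -0.29, beside 0.01 over all genes. Dgka, the diacylglycerol kinase that SAP restrains, was at 1384 to 1459 in controls and 509 to 570 in cKOHet libraries (log2 -1.42, SE 0.11, limma adjusted p = 3.50e-07). Cbl, a ubiquitin ligase that limits receptor signalling, was at 655 to 812 and 261 to 275 (log2 -1.42, limma adjusted p = 1.69e-06). Dok2, an adaptor that recruits a brake on Ras, was at 1900 to 2428 and 836 to 1063 (log2 -1.19, limma adjusted p = 9.47e-06). These 3 genes had no overlap between groups. Ptpn6 rose from between 1577 and 2242 to between 4090 and 4726 (log2 1.22, limma adjusted p = 1.02e-05). It encodes the phosphatase SHP-1, which can bind SLAM receptor tails in place of SAP.

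The other called genes of that list, named after their values were seen, were Rasa1, which rose (log2 0.88), and Malt1 (-0.61), Prkcq (-0.60), Plcg1 (-0.55), Vav1 (-0.51) and Cblb (-0.44), which fell. Prkcq encodes the protein kinase C form that SAP and Fyn engage on the way to NF-kappaB, Malt1 acts further down the same route, and Plcg1 and Vav1 encode a phospholipase and an exchange factor of T cell receptor signalling. The call of Cblb ended in 5 of the 17 alternative fits, among them those without control replicate 1 or 4 or cKOHet replicate 1 or 2 (adjusted p 0.0501 to 0.0706). Without a mean-variance trend the calls of Prkcq, Vav1 and Plcg1 also ended (adjusted p = 0.063, 0.0681 and 0.054). Nfkb1, on the same route, was not called (log2 -0.20).

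Of the other Src family kinases 4 were tested, of which 2 rose and 1 fell, beside 11.5% and 9.97% of all genes tested. Lck, which phosphorylates the T cell receptor complex, was the only one at a level like that of Fyn, and it was at 4828 to 5294 in controls and 4783 to 5415 in cKOHet libraries (log2 -0.01, 95% interval -0.26 to 0.24). Fgr fell from between 176 and 224 to between 75.0 and 146 (log2 -0.96, limma adjusted p = 0.00886), a call that ended without a mean-variance trend (adjusted p = 0.0553) and in the 4 libraries with high Xist (adjusted p = 0.11). Src and Lyn were low, Src at 6.33 to 15.9 and 22.2 to 44.6, Lyn at a mean of 10.4 ± 0.739 and 29.04 ± 9.99 (SD, n = 3), in controls and cKOHet libraries. They were called higher (log2 1.64 and 1.34, limma adjusted p = 0.0241 and 0.0434). The call of Src ended without any single library except control replicate 2 or cKOHet replicate 1 (adjusted p 0.0617 to 0.116), and that of Lyn without any except cKOHet replicate 2 (adjusted p 0.0766 to 0.161). Fgr, Src and Lyn are also used by myeloid cells, whose marker sums are given above, and the part of such cells was not tested. Yes1 did not pass the filter. Of 5 SLAM relatives and adaptors only Cd2 was listed, while Slamf8, Slamf9 and both EAT-2 genes (Sh2d1b1 and Sh2d1b2), whose product couples Slamf7 to signalling in other cells, were not.

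Of 9 factors tied to SLAM signals in iNKT selection, 4 rose and 5 did not pass the test, while 11.5% of all genes tested were called higher. Their median log2 fold change was 0.51, beside 0.01 over all genes. Egr1, induced by strong receptor signals, was at 224 to 362 in controls and 530 to 842 in cKOHet libraries (log2 1.16, limma adjusted p = 0.000399). Gata3 rose by 0.55 (limma adjusted p = 0.00366). Zbtb16, which encodes PLZF, and the survival gene Bcl2l1 were called with log2 fold changes of 0.53 and 0.36 (limma adjusted p = 0.0267 and 0.043). Their calls were fragile. That of Zbtb16 ended without any control or without cKOHet replicate 4, where the value was 0.31 (adjusted p 0.0531 to 0.0912). That of Bcl2l1 ended without any library but cKOHet replicate 1 (adjusted p 0.0609 to 0.169). Both also ended without a mean-variance trend (limma adjusted p = 0.15 and 0.131) and in the 4 libraries with high Xist (0.163 and 0.104). Rescaling by median ratios ended that of Bcl2l1 too (limma adjusted p = 0.0502). Myb, an activator of SLAM receptor expression in thymocytes, was low and not called (19.1 to 23.9 and 28.7 to 49.9, adjusted p = 0.141), and Egr2, Runx1, Tcf12 and Cd1d1 were not called.

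**Figure D5:**
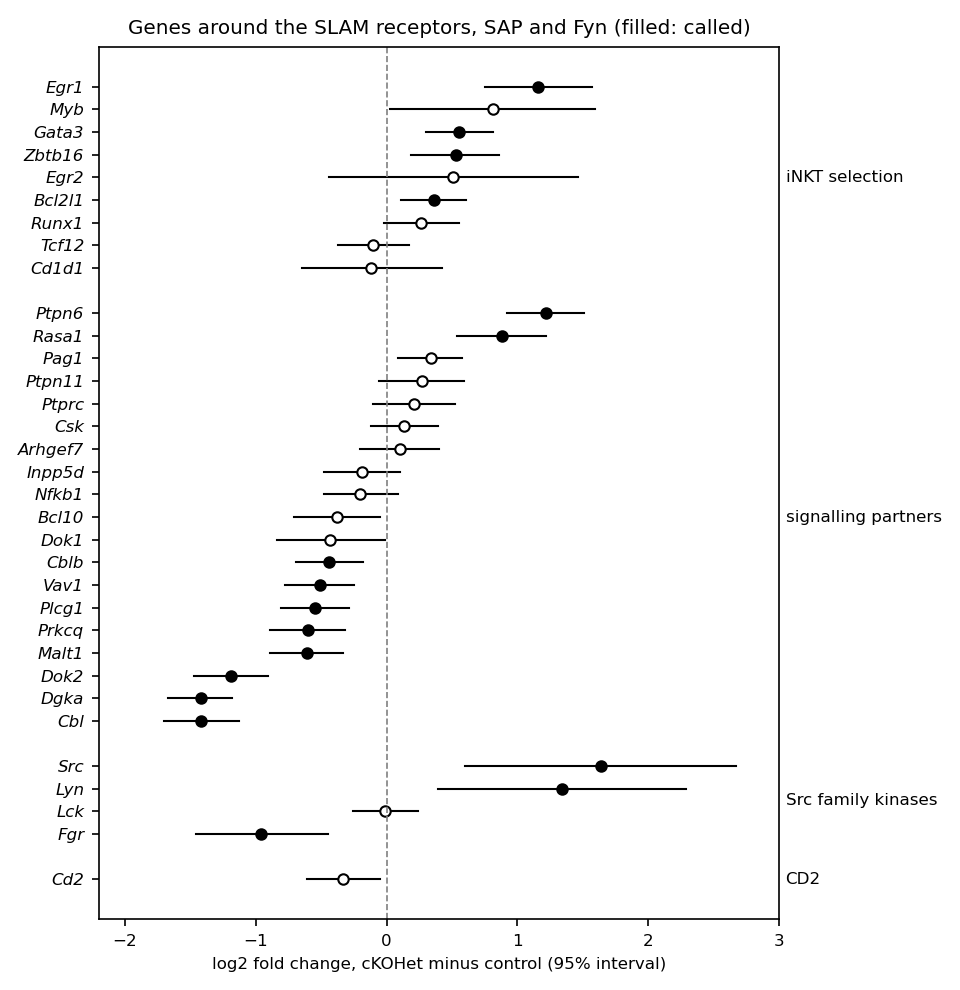
Log2 fold change (cKOHet minus control) with 95% intervals of tested genes of the 4 lists, 1 gene not reported here left out, with filled circles for called genes. Among the signalling partners Dgka and Cbl are lowest at -1.42 and Ptpn6 is highest at 1.22.

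The direction of the 6 called genes was the same in the libraries with high Xist and in those with low Xist. Between replicates 1 and 2 of each group the log2 fold change was -1.19 for Ly9, -0.90 for Cd84, -0.80 for Fyn, 0.63 for Slamf7, 0.48 for Sh2d1a and 2.68 for Cd244a. Between the single replicates 4 it was -0.97, -0.59, -0.87, 0.88, 0.44 and 3.97. Slamf6 was at -0.62 in the first set, where it was called (adjusted p = 0.0442), and at 0.01 in the second, and Slamf1 at -0.12 and 0.80. An interaction term in limma called 0 of the 9 genes, with adjusted p from 0.593, for Slamf1, to 0.971. Only Slamf1 had an unadjusted p under 0.05 there (0.0447, limma adjusted p = 0.593). With 1 low-Xist library in each group, that test rests on the spread among the others.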

How the data were processed

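RNA of sorted liver iNKT cells (3 control and 3 cKOHet libraries) was prepared with RNeasy mini kits and sequenced from Ovation Ultralow libraries, per the labels' protocols. The submitters' processing notes list mm10 with STAR, DESeq2, Trimmomatic 0.33 and HTSeq 0.6.1. For strand setting, annotation release and scaling method nothing is given in the sources used here. Deposited values are a signal by Ensembl identifier, called normalised counts by the authors. The values are not whole and the depth is unknown, so no count model was used.

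Symbols, positions and exons came from GENCODE M21 (GRCm38, the build mm10), which matched 12870 of 12942 identifiers. Genes at 10 or more in at least 3 libraries were tested on log2(value + 1) with limma 3.58.1 (R 4.3.3, mean-variance trend, two-sided, Benjamini-Hochberg over all 11226 genes). Fold changes on that scale understate the change of low genes. The script was tested on simulated data. The design text calls the replicates independent but names no mice, and the p-values reflect only the spread among the 6 libraries, which may be technical.

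The members and lists were chosen with earlier results of these data known. Named were the 9 genes, Ets1 and Tbx21, up to 4 called genes per list by smallest adjusted p (or the best where none was called), the tested genes of the chromosome 1 cluster, and the 3 genes most like the called gene with the largest change. Promoter windows are RefSeq sequences on GRCm38.p6. Alternatives covered the pseudocount, filter, scaling, variance model, a replicate block, a low-Xist term and each library left out on the same genes. The 4 high-Xist libraries alone and the interaction term were added after the data were seen. A few genes of the lists are not reported here by name.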

Additional observations from a re-analysis of the deposited data

How the results depend on the processing

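Of 153 refits of the 9 genes under 17 alternatives each, 142 kept the direction and the side of the threshold. The log2 fold changes ranged from -1.23 to -0.99 for Ly9, -0.90 to -0.72 for Cd84, -0.91 to -0.77 for Fyn, 0.63 to 0.84 for Slamf7 and 2.48 to 3.63 for Cd244a, and these 5 genes were called in all 17. Slamf1, which was not called in any fit, changed sign in the libraries with high Xist alone (-0.12) and ranged from -0.0925, without control replicate 4, to 0.4959 with 1 library left out. The number of genes called higher among the 9 was 2 to 4 and lower 3 to 4. Of the 17 genes called in the pathway lists, 10 were called without a mean-variance trend, and 12 to 15 with 1 library left out. The cause was not tested. Over all genes, 1670 to 2483 were called, against 2407. Rescaling moved the median of all genes to -0.01 or -0.02 and reversed no direction among the 9.

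The replicate numbers were not taken as pairs. Deviations of same-numbered libraries from their group means correlated at 0.092, 0.088 and 0.055 for replicates 1, 2 and 4, and every library correlated best with its own number, but for replicate 4 this did not hold over autosomal genes alone (r = 0.010, against 0.044 and 0.050 with other numbers). A replicate block gave 2412 called genes. Under it Cd48 was called (adjusted p = 0.0372), Lyn was not (adjusted p = 0.0509) and the calls of the other 8 genes of the set did not change. Because whole reads could not be recovered, counting error at the low level of Cd244a in controls is unknown.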
